A study of Rattus norvegicus with 24 samples.

Results

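The respiratory chain subunit genes of rat lung were taken from the deposited expression table by name. They were the 13 mitochondrial-encoded subunits (ND1 to ND6, ND4L, CYTB, COX1 to COX3, ATP6 and ATP8) and the nuclear rows whose names start with Ndufa (assembly factors named Ndufaf left out), Ndufb, Ndufc, Ndufs, Ndufv, Uqcr, Cox4 to Cox8 or Atp5, together with Sdha to Sdhd. The rule used names alone and found 100 rows of 32489, of which 13 were mitochondrial and 87 nuclear. The nuclear rows carried 85 names, because Uqcrb and Cox6b1 each had 2 gene IDs. Male Wistar rats, 5 to 6 weeks old, had received silica particles at 200 mg/mL or normal saline into the trachea, and 6 lung libraries were labelled as biological replicates in each of 4 groups: silica at day 14, saline at day 14, silica at day 28 and saline at day 28. Poly-A RNA of whole lung was sequenced, so that fewer cells of a type and less RNA per cell cannot be told apart.

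The respiratory chain passes electrons from NADH and succinate through complexes I to IV to oxygen and pumps protons across the inner mitochondrial membrane, and complex V uses the proton gradient to make ATP. Mitochondrial DNA encodes a few subunits of complexes I, III, IV and V, while complex II and all other subunits are encoded in the nucleus, translated in the cytosol and imported. Mitochondrial mRNAs are cut from long transcripts of each DNA strand, and ND6 is the one subunit message that comes from the strand opposite to the rest. In lung the chain is active in alveolar type 2 cells, macrophages, ciliated cells and smooth muscle. Lung also makes a lung-enriched isoform of complex IV subunit 4, Cox4i2, beside the common Cox4i1.

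The recovered depth was 59.6 to 74.9 M (M, 1000000 reads) in silica day 14 libraries, 65.5 to 84.6 in saline day 14, 62.0 to 66.8 in silica day 28 and 55.1 to 65.2 in saline day 28. The labelled tissue was checked with 7 type 2 cell markers, which summed to 16579 to 29985 FPKM in silica day 28 and 14529 to 25215 FPKM in saline day 28 lungs. Muscle RNA stood out in 2 libraries. Silica day 28 replicate 1 held 2326 FPKM of Ckm, the muscle creatine kinase, with 11976 FPKM of skeletal actin Acta1 and also 114 FPKM of the cardiac myosin Myh6. Saline day 14 replicate 5 held 143 FPKM of Myh6. That library also held 9.52 FPKM of the brown fat marker Ucp1, which was at 0 in every other saline day 14 library. The cardiac markers summed to 1986 FPKM in the first and 770.0 FPKM in the second. Actc1 alone gave 1540 FPKM of the first sum and 283 FPKM of the second. Tnnt2 was at 105 and 99.6 FPKM and Tnni3 at 19.6 and 28.8 FPKM, so other cardiac markers did not differ as the sums did. Some values that rest on these 2 libraries are also given without both. Others are given only with them, such as the changes of Sdha, Atp5f1b, Cox5b, Cox6a2 and Cox8b at day 28.

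Some nuclear members share sequence letters near their starts. RefSeq promoters of the GRCr8 build (250 bases before to 50 after the start) were found for 74 of the 85 nuclear names, and 4 short letter strings were searched on both strands. The string CCGGAAG, which the ETS factor GABPA is known to bind, was in 20 of 74 member promoters (27.0%), against 8.75% of all 33469 promoters. GCGCATG, held in the NRF1 motif, was in 12 (16.2%, against 3.77%), and ATGGCGG, held in the YY1 motif, was in 16 (21.6%, against 4.80%). TATAAA, the TATA box, was in 6 (8.11%, against 14.2%). At least 1 of the 3 factor strings was in 33 member promoters (44.6%, against 15.4%). Each string was counted on its own, with overlapping matches not merged, and a match describes letters, not a binding site.

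The 250 bases before the start are printed for the 3 nuclear members that passed the test in a silica comparison, with matched factor letters in capitals: Atp5f1a at chr18:73567287-73567536 on the plus strand, Ndufs1 at chr9:72073606-72073855 on the minus strand and Ndufa4l2 at chr7:65241919-65242168 on the plus strand. The capitals mark the GABPA string in Atp5f1a, and the GABPA and then the YY1 string in Ndufs1, all read on the opposite strand. None of the 3 factor strings was found in the Ndufa4l2 window.
Atp5f1a: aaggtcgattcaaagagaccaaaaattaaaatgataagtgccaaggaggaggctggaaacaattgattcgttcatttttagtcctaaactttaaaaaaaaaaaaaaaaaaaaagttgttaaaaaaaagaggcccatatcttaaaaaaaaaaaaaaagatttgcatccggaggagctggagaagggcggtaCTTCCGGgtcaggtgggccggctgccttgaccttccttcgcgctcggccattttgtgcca
Ndufs1: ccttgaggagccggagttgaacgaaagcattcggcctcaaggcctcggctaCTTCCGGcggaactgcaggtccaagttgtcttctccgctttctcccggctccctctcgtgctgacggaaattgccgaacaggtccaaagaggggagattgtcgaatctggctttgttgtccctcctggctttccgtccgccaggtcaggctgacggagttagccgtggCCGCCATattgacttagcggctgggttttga
Ndufa4l2: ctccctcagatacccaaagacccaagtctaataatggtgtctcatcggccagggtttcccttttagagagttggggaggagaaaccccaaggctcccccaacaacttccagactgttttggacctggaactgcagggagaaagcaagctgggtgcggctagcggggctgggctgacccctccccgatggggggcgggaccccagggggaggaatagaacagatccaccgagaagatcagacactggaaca

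Set side by side, the median ratio of mitochondrial to nuclear subunit RNA was lower in silica than in saline lungs at both days, with overlap between groups that depended on how the ratio was taken. The 13 mitochondrial members summed to 21287 to 24969.6 FPKM in silica day 14 lungs, against 22391 to 40352 FPKM in saline day 14 lungs (medians 22789.7 and 23872). At day 28 they summed to 22218 to 41709 FPKM in silica lungs, against 28964 to 100206 FPKM in saline lungs (medians 26779.9 and 52027). The saline day 28 libraries spread widely, with replicate 1 at 100206 FPKM, replicate 6 at 74019 and replicate 4 lowest at 28964. Nuclear sums overlapped between groups: 5680.1 to 9344 FPKM in silica day 14, 5286 to 7030.5 in saline day 14, 5674 to 10779.7 in silica day 28 and 5136 to 6702 in saline day 28. The highest nuclear sums were in silica day 28 replicate 1, the muscle-rich library (10779.7 FPKM), and silica day 14 replicate 4 (9344 FPKM).

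The log2 ratio of the mitochondrial to the nuclear sum was 1.30 to 1.96 in silica day 14 lungs (median 1.92), against 1.98 to 2.52 in saline day 14 lungs (median 2.14). All 6 silica libraries lay below all 6 saline libraries at that day, by a narrow margin. From recovered reads in place of FPKM the day 14 groups overlapped, at up to 2.23 in silica lungs, above the lowest saline library at 2.097. At day 28 the ratio was 1.95 to 2.24 in silica lungs (median 2.00), against 2.18 to 3.98 in saline lungs (median 2.97), and the groups overlapped. That overlap came from silica replicate 3, whose sum holds 2543 FPKM of ATP8. Over the 7 well-detected members (COX1, COX2, CYTB, ND1, ND2, ND3 and ND5, a set chosen after their values were seen) the day 28 ratio was 1.95 to 2.11 in silica and 2.18 to 3.97 in saline lungs, with no overlap, while from recovered reads of all 13 it was 2.07 to 2.41 in silica and 2.31 to 4.08 in saline lungs, with overlap again through silica replicate 3. Without the 2 libraries with muscle RNA the day 14 ratios were still apart, at 1.30 to 1.96 in silica and 1.98 to 2.16 in saline lungs, and at day 28 the mitochondrial sums of silica lungs (at most 27678 FPKM) lay below those of saline lungs (at least 28964 FPKM), while the ratios over 13 members overlapped. A sum over chosen members was given no test.

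**Figure D1:**
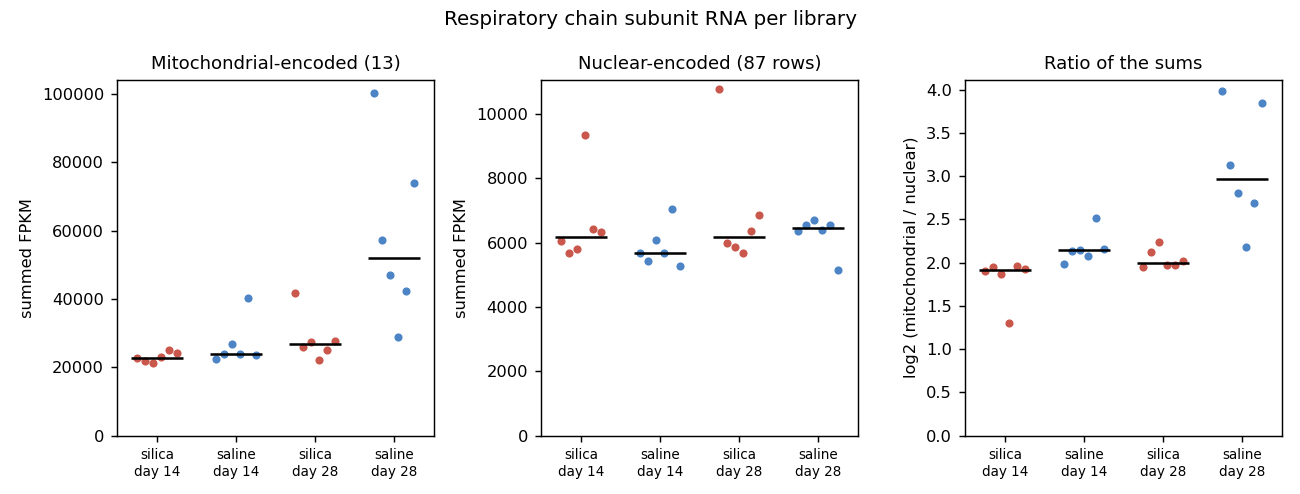
Summed FPKM of the 13 mitochondrial-encoded and the 87 nuclear-encoded rows and the log2 ratio of these sums, 1 point per library and a line at the group median, with silica in red and saline in blue. The saline day 28 libraries reach from 28964 to 100206 mitochondrial FPKM, while their nuclear sums stay between 5136 and 6702 FPKM.

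At day 28, 7 of the 10 tested mitochondrial members were lower in silica than in saline lungs and passed the test. The tested members were those with at least 0.5 FPKM in at least 6 libraries, and the call was a limma adjusted p under 0.05 over all 20856 genes tested; ND4, ND4L and ATP8 did not pass that filter. Of all genes tested, 13.8% were called at day 28, 8.47% as lower. All 7 subunits called belong to complexes I and IV: the complex I core subunits ND1, ND2, ND3, ND5 and ND6, and COX1 and COX2, which hold the catalytic centres of cytochrome c oxidase. The median log2 change of the 10 tested members was -0.95, against -0.03 over all genes.

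ND1, a membrane subunit beside the quinone site, had 1969 to 3801 FPKM (median 2358) in silica day 28 lungs, against 2620.3 to 9153 FPKM (median 4408) in saline day 28 lungs. For ND1 the log2 change was -0.95 (SE 0.25, limma adjusted p = 0.0184). The muscle-rich silica replicate 1, at 3801 FPKM, reached into the saline range. ND2, a proton-pumping subunit, had 1914 to 3622 FPKM (median 2144) in silica day 28 lungs, against 2338 to 9595 FPKM (median 4537) in saline day 28 lungs. For ND2 the log2 change was -1.06 (SE 0.26, limma adjusted p = 0.0147). Saline replicate 4, at 2338 FPKM, was the library nearest to silica. ND3 had 437 to 962 FPKM (median 576) in silica day 28 lungs, against 577 to 2224 FPKM (median 1014) in saline day 28 lungs. For ND3 the log2 change was -0.81 (SE 0.26, limma adjusted p = 0.0381). ND5, another proton-pumping subunit, had 752 to 1600.0 FPKM (median 836) in silica day 28 lungs, against 991 to 3671 FPKM (median 1614) in saline day 28 lungs. For ND5 the log2 change was -0.95 (SE 0.25, limma adjusted p = 0.0188). For ND1, ND2 and ND5 only silica replicate 1 lay above the lowest saline library, and for ND3 silica replicates 1, 5 and 6 did.

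COX1, the subunit that reduces oxygen, was the most abundant member, with 14182 to 25651 FPKM (median 16317) in silica day 28 lungs, against 18876 to 67536 FPKM (median 34198) in saline day 28 lungs. For COX1 the log2 change was -0.99 (SE 0.28, limma adjusted p = 0.0238). COX2, which takes electrons from cytochrome c, had 1349 to 3219 FPKM (median 1613) in silica day 28 lungs, against 1844 to 6620.2 FPKM (median 3387) in saline day 28 lungs. For COX2 the log2 change was -0.95 (SE 0.26, limma adjusted p = 0.0222). ND6, the light-strand gene, was far scarcer and more scattered, with 0.357 to 32.5 FPKM (median 15.7) in silica day 28 lungs, against 22.9 to 366 FPKM (median 79.0) in saline day 28 lungs. For ND6 the log2 change was -3.08 (SE 1.00, limma adjusted p = 0.0434). Silica replicates 3 and 5 lay above the lowest saline library, and silica replicate 1 was level with it. CYTB, the haem-bearing core of complex III, had 1396 to 2819 FPKM (median 1515) in silica day 28 lungs, against 942 to 4529.6 FPKM (median 2532) in saline day 28 lungs and was not called (-0.48, SE 0.27, limma adjusted p = 0.237); its lowest saline library, replicate 1, was the one in which the 7 called members were highest.

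Of the 7 calls, all but that of ND2 were lost in at least 1 fit that left out a single day 28 library. ND1 and ND5 lost theirs only without saline replicate 1, at a limma adjusted p = 0.0548 and 0.0551. Counts of mitochondrial members called were 1 (ND2) without saline day 28 replicate 1, 3 without saline day 28 replicate 2, 3 without silica day 28 replicate 3 and 3 without silica day 28 replicate 4, and 0 in a fit of the day 28 groups alone, where 2.78% of all genes were called. Without saline replicates 1, 2 and 6, the 3 libraries with the highest mitochondrial sums, 0 were called, a loss that the choice of libraries favours by construction and under which 0.288% of all genes were called. The log2 changes of ND1, ND2 and COX1 were -0.46, -0.50 and -0.50 there. Without the 2 muscle-rich libraries all 7 were called beside 13% of all genes, with ND1 at -1.08 and ND2 at -1.19. No member was apart in all libraries of the 2 day 28 groups, where 1.71% of all genes had every silica library higher and 1.21% every one lower.

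At day 14 none of the 10 tested mitochondrial members was called with limma or with limma-voom on recovered reads, and 0 had an unadjusted p under 0.05. Of all genes, 4.37% were called, and 20.3% had an unadjusted p under 0.05. ND1 had 1463 to 2569.6 FPKM (median 2007) in silica day 14 lungs, against 1707 to 3512 FPKM (median 2291) in saline day 14 lungs. For ND1 the log2 change was -0.23 (SE 0.25, limma adjusted p = 0.658). COX1 had 13784 to 15323 FPKM (median 14398) in silica day 14 lungs, against 14308 to 25253 FPKM (median 15792) in saline day 14 lungs. For COX1 the log2 change was -0.23 (SE 0.28, limma adjusted p = 0.692). The groups overlapped, with saline replicate 5 highest. ND5 had 569.9 to 899 FPKM (median 763) in silica day 14 lungs, against 882 to 1554 FPKM (median 948) in saline day 14 lungs. For ND5 the log2 change was -0.43 (SE 0.25, limma adjusted p = 0.347), with only silica replicate 5 above the lowest saline library. COX2 lay on the other side of 0, at 0.20 (SE 0.26, limma adjusted p = 0.718), with silica replicates 4 and 5 at 2221 and 2984 FPKM and the other 4 silica libraries at or under 1639 FPKM.

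The mitochondrial members also differed between days in saline lungs. Of the 10 tested, 6 were higher at day 28 than at day 14 and passed the test. The log2 changes were 1.03 for ND1, 1.20 for ND2, 0.90 for ND3, 0.82 for ND5, 1.04 for COX1 and 1.14 for COX2, with limma adjusted p between 0.00316 and 0.0197. This comparison shares the saline day 28 libraries with the silica comparison at day 28, and 25.2% of all genes were called in it. Without saline day 28 replicates 1, 2 and 6, 0 mitochondrial and 0 nuclear members were called between days in saline, beside 1.73% of all genes. In silica lungs 0 members were called between day 28 and day 14 by limma or limma-voom, 0 of the mitochondrial and 3 of the nuclear members had an unadjusted p under 0.05, and 1 gene in all, 0.00479%, was called, with 8.81% under an unadjusted p of 0.05. ND2 had 1914 to 3622 FPKM (median 2144) in silica day 28 lungs, against 1535 to 2389.8 FPKM (median 1873) in silica day 14 lungs. In saline, ND2 had 2338 to 9595 FPKM (median 4537) in saline day 28 lungs, against 1536 to 3128 FPKM (median 1953) in saline day 14 lungs. In a direct test of the difference between the silica effects of the 2 days, COX2 was called, at -1.15 (SE 0.37, limma adjusted p = 0.0488), beside 9.93% of all genes; ND1 was at -0.72 (SE 0.35, limma adjusted p = 0.175). The COX2 call was lost in 17 of 24 fits that left out 1 library. Without both muscle-rich libraries COX2, ND2 and ND3 were called in that test, beside 12.9% of all genes.

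Among the 7 well-detected members, COX1 held 55.8 to 68.8% of the summed FPKM in the 24 libraries. ND1 held a median of 9.28% in silica day 28 and 8.97% in saline day 28 lungs, and ND2 held 8.64% and 8.74%. CYTB held 5.27 to 6.76% in silica day 28 lungs, and 0.945 to 6.13% in saline day 28 lungs, where replicate 1 was the low one. COX2 took its largest share, 12.0%, in silica day 14 replicate 5, against medians of 7.08% in silica day 14 and 5.94% in saline day 14 lungs.

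Of the other 6 mitochondrial members, 5 were erratic and ND4L was barely detected. ND4L was listed at a value worth the same number of reads in all 24 libraries. Recovery took the lowest length that fits, here 1 read over 98 bases, and larger multiples of both fit as well. ATP8, a small stator-side subunit of complex V, was worth 3 recovered reads in 21 libraries, but 192343 reads, or 2543 FPKM, in silica day 28 replicate 3. ND4 was worth 7 to 268 reads in 22 libraries, but 1431 in saline day 28 replicate 4 and 78841 in saline day 28 replicate 5 (1622 FPKM). ATP6, the proton channel subunit of complex V, ran from 8 to 15690 reads, and COX3 from 83 to 84998, the last in saline day 14 replicate 5 (1015 FPKM). COX3 had 11.9 to 196 FPKM (median 23.5) in silica day 28 lungs, against 2.61 to 97.6 FPKM (median 16.6) in saline day 28 lungs. For COX3 the log2 change was 0.88 (SE 1.04, limma adjusted p = 0.599), and ATP6 was at -0.09 (SE 1.10, limma adjusted p = 0.965). Over all genes, 22 rows were worth the same recovered number of reads in every library, as ND4L was. The recovered lengths (687 bases for COX1, 2332 for CYTB, 1861 for COX2, 955 for ND1) are the lowest that fit the FPKM values. Levels compared between mitochondrial members depend on the lengths behind the FPKM. So do the mitochondrial sums, the share held by COX1 and the ratio to the nuclear sums. How reads of the mitochondrial genome were shared out between rows was not tested.

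**Figure D2:**
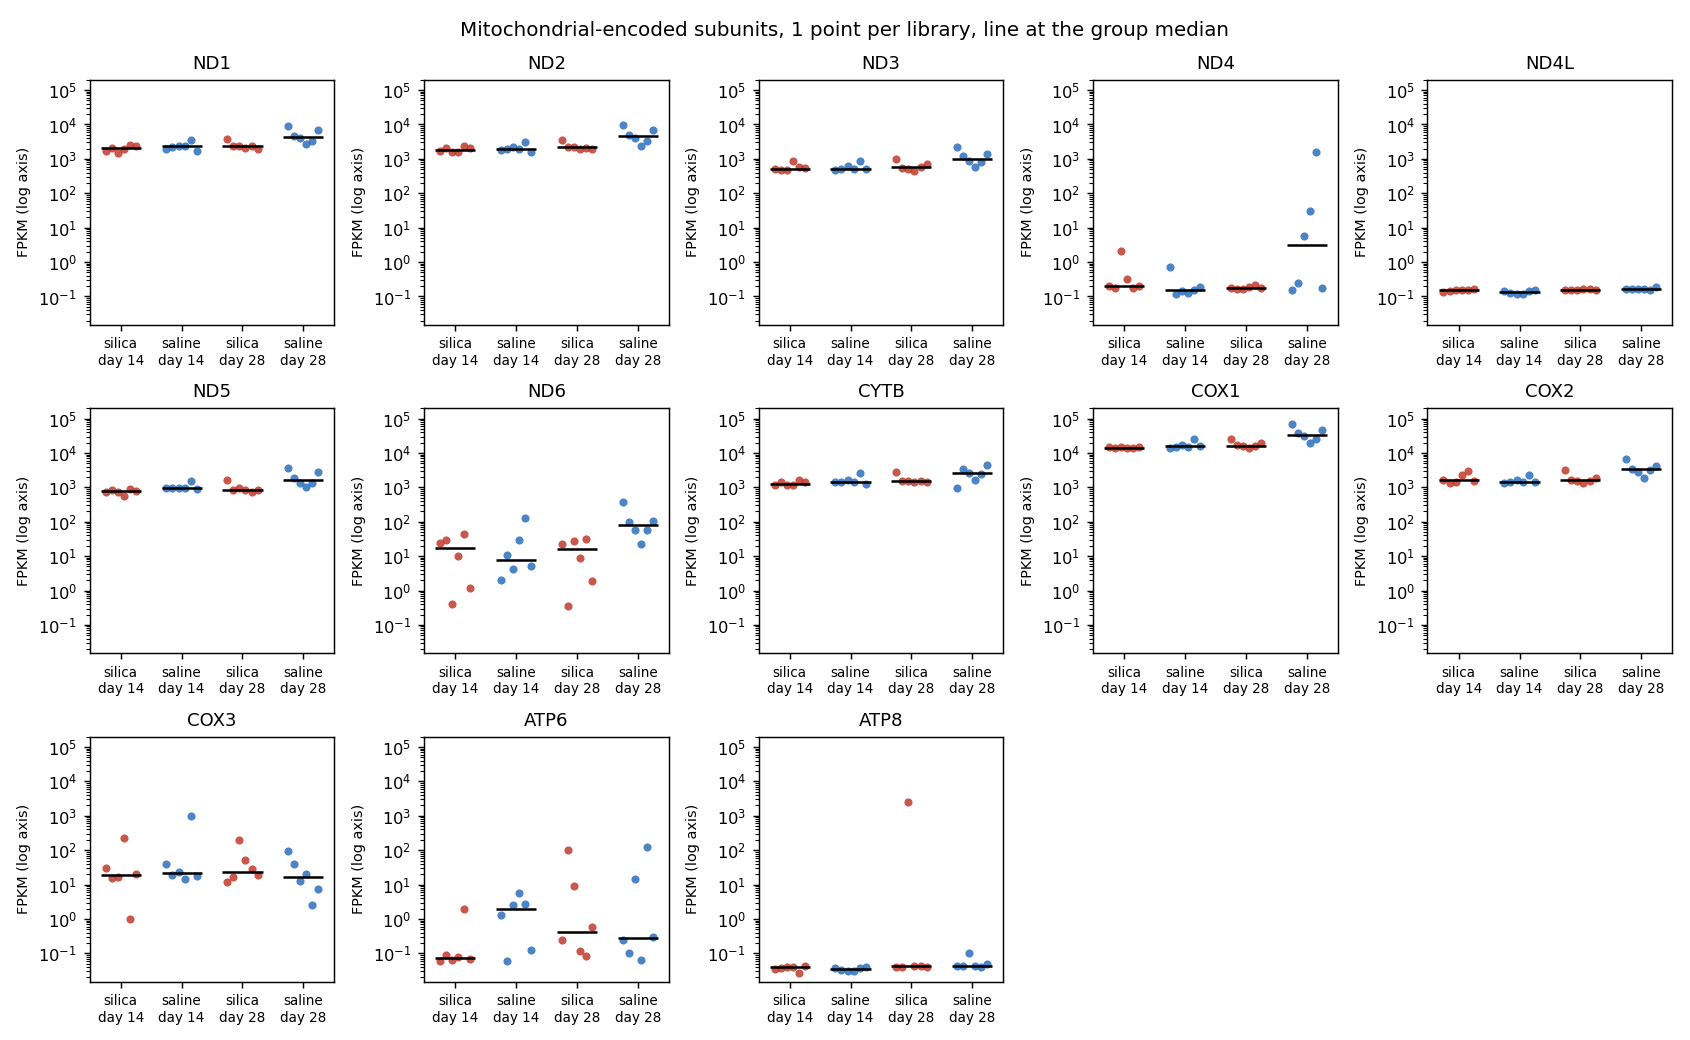
FPKM of each mitochondrial-encoded subunit on a common log axis, 1 point per library, a line at the group median, silica in red and saline in blue. ND1, ND2, ND3, ND5, COX1 and COX2 are highest in saline day 28 lungs. ND4, COX3, ATP6, ATP8 and ND6 scatter over several powers of 10, and ND4L keeps the same low recovered read number in all libraries.

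Few nuclear-encoded subunits passed the test. At day 14, 0 of 83 tested nuclear members were called by limma and 0 by limma-voom, beside 4.37% of all genes. An unadjusted p under 0.05 was found for 11, a smaller share than the 20.3% of all genes, and 75 of the 83 lay above 0 with a median log2 change of 0.14 (all genes -0.0023). The members share the same libraries, so 75 is not a count of separate results. Silica day 14 replicate 4 had a nuclear sum of 9344 FPKM, against at most 6415 FPKM in the other silica day 14 libraries. At day 28, 2 nuclear members were called, both higher in silica, beside 5.30% of all genes called higher. Of the 83, 54 lay above 0, 15 had an unadjusted p under 0.05 (all genes 31%) and the median was 0.09. In saline lungs between day 28 and day 14, 4 were called higher and 3 lower (all genes 14.1% and 11.1%), and in the test of the change of the silica effect 1 was called higher (all genes 5.02%). Ndufs6, Ndufa10l1, Cox7b2 and Cox8c did not pass the filter. Complexes II and III had 0 of 4 and 0 of 9 members called at either day, with 1 of each under an unadjusted p of 0.05 at each day.

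**Figure D3:**
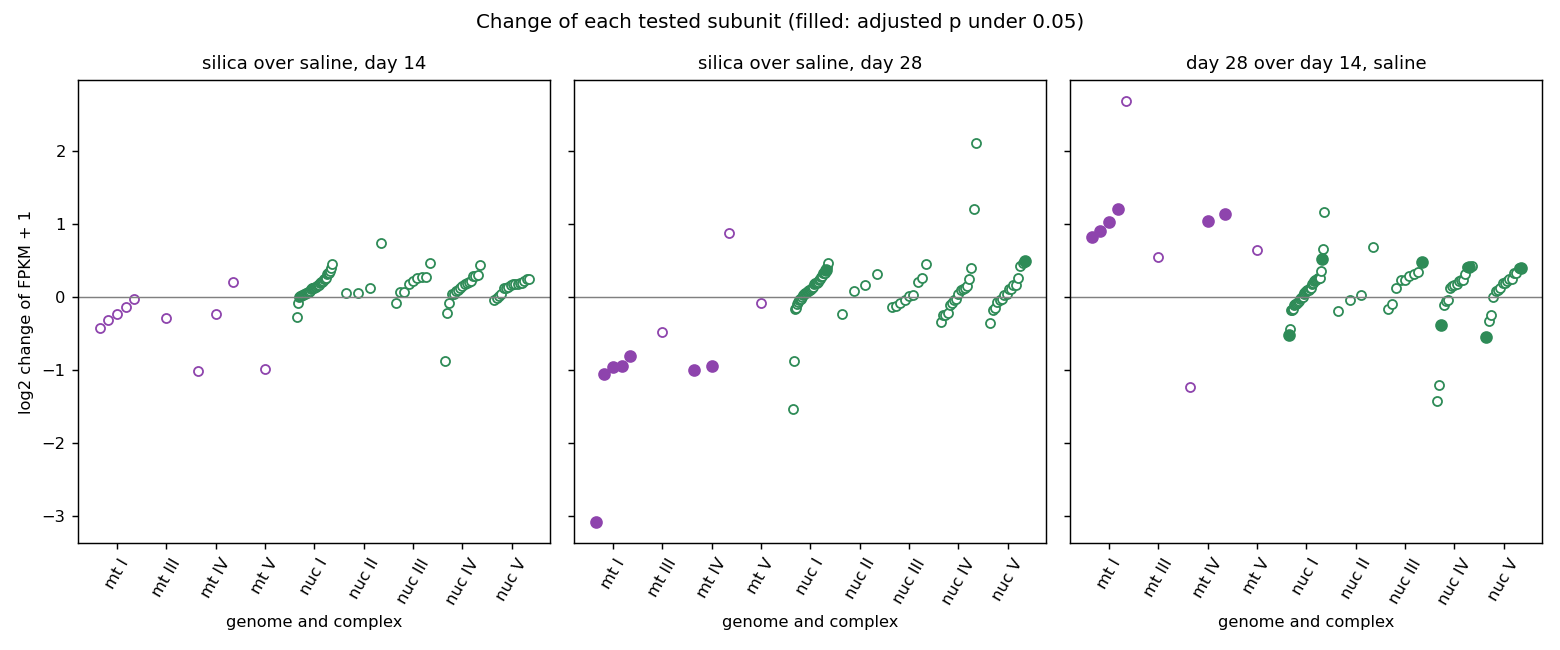
Log2 change of FPKM + 1 for each tested member, ordered within its genome and complex, for silica over saline at day 14 and day 28 and for day 28 over day 14 in saline lungs; mitochondrial (mt) members in purple, nuclear (nuc) members in green, filled where the limma adjusted p was under 0.05. At day 28, 7 mitochondrial members lie filled below 0 and 2 nuclear members filled above it.

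Complex I holds 39 nuclear rows here. Ndufa4l2, a paralogue of Ndufa4 known as a hypoxia-induced gene, was called at day 28, with 15.0 to 23.2 FPKM (median 20.3) in silica day 28 lungs, against 12.9 to 17.0 FPKM (median 15.3) in saline day 28 lungs. For Ndufa4l2 the log2 change was 0.38 (SE 0.11, limma adjusted p = 0.0285). It was also lower in saline lungs at day 28 than at day 14 (-0.52, SE 0.11, limma adjusted p = 0.00297), with every day 28 library below every day 14 library, as for 4.99% of all genes. Ndufa4, now counted as a complex IV subunit, had 84.3 to 214 FPKM (median 109) in silica day 28 lungs, against 78.5 to 153 FPKM (median 97.9) in saline day 28 lungs and was not called (0.19, SE 0.21, limma adjusted p = 0.576). Ndufa4l2 lost its call without silica day 28 replicate 2, 4 or 5 or saline day 28 replicate 1, 2 or 6.

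Ndufs1, a large iron-sulfur subunit of the peripheral arm, had the only nuclear call in the change of the silica effect, at 0.75 (SE 0.24, limma adjusted p = 0.0489). At day 14 it had 26.1 to 30.6 FPKM (median 29.2) in silica day 14 lungs, against 34.2 to 37.1 FPKM (median 34.8) in saline day 14 lungs, every silica library below every saline library, as for 2.20% of all genes, with a change of -0.28 (SE 0.17, limma adjusted p = 0.371). At day 28 it had 29.2 to 81.1 FPKM (median 30.1) in silica day 28 lungs, against 21.6 to 30.0 FPKM (median 26.8) in saline day 28 lungs. For Ndufs1 the log2 change was 0.47 (SE 0.17, limma adjusted p = 0.0649), where the muscle-rich silica replicate 1 stood at 81.1 FPKM. Without the 2 muscle-rich libraries the difference of the effects was 0.50 (limma adjusted p = 0.0109, with Ndufa6, Ndufs7, Atp5mg and Atp5f1e then called as well, in the other direction), and the change at day 28 was 0.24 (limma adjusted p = 0.0470). In saline every day 28 library lay below every day 14 library for Ndufs1, as for 4.99% of all genes, with a log2 change of -0.44 (SE 0.17, limma adjusted p = 0.0585). The call on the difference of effects was lost in 16 of 24 fits that left out 1 library.

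Among accessory subunits of complex I, Ndufa6 had 56.7 to 124 FPKM (median 68.5) in silica day 14 lungs, against 46.3 to 72.6 FPKM (median 52.8) in saline day 14 lungs. For Ndufa6 the log2 change was 0.40 (SE 0.16, limma adjusted p = 0.158), and it was higher in saline lungs at day 28 than at day 14 (0.52, SE 0.16, limma adjusted p = 0.0216). Ndufa7 was at 0.35 (SE 0.12, limma adjusted p = 0.0879) at day 14, with 53.3 to 93.0 FPKM (median 66.8) in silica day 14 lungs, against 47.9 to 58.7 FPKM (median 52.6) in saline day 14 lungs. Ndufv3, a subunit of the NADH-binding module, had 48.8 to 58.3 FPKM (median 49.8) in silica day 14 lungs, against 42.0 to 48.1 FPKM (median 44.3) in saline day 14 lungs, every silica library above every saline library, as for 2.80% of all genes, and a change of 0.20 (SE 0.07, limma adjusted p = 0.0972). Ndufb4 was the most abundant nuclear member of the complex, at a mean of 105 FPKM over 24 libraries, and Ndufa10l1 the lowest, at 0.0114 FPKM.

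Some rows of complex I were unsteady between libraries of 1 group. Ndufa5 ran from 0.0235 to 24.4 FPKM and was at -1.53 (SE 0.58, limma adjusted p = 0.0782) at day 28. Ndufa1 was at 2.60 FPKM in silica day 28 replicate 1, where LOC108348144, a row the file describes as the same subunit, was at 18.8 FPKM. Ndufs6 was at 0.0742 FPKM on average, while LOC679739 and LOC100912599, 2 rows described as that subunit, were detected. In all, 51 rows outside the names used here carried descriptions of respiratory chain subunits, 23 of them with a mean of at least 1 FPKM. Whether reads were shared between such rows and the members was not tested.

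Complex II, succinate dehydrogenase, is the one complex with no mitochondrial subunit. Sdha, its flavoprotein, had 70.3 to 134 FPKM (median 77.6) in silica day 28 lungs, against 59.9 to 75.1 FPKM (median 67.2) in saline day 28 lungs. For Sdha the log2 change was 0.31 (SE 0.11, limma adjusted p = 0.0540), and Sdhb, the iron-sulfur subunit, was at 0.08 (SE 0.09, limma adjusted p = 0.605). Sdhc, a membrane anchor, fell on 2 levels within groups. At day 14 it had 28.7 to 87.6 FPKM (median 68.1) in silica day 14 lungs, against 30.2 to 61.5 FPKM (median 33.5) in saline day 14 lungs, with silica replicate 1 alone at the low level and saline replicate 1 alone at the high one, and a change of 0.74 (SE 0.31, limma adjusted p = 0.173). At day 28 it had 29.2 to 124 FPKM (median 47.3) in silica day 28 lungs, against 32.5 to 73.4 FPKM (median 62.8) in saline day 28 lungs. For Sdhc the log2 change was -0.23 (SE 0.31, limma adjusted p = 0.650), with silica replicates 2, 3 and 5 and saline replicate 5 at the low level. Sdhd, the other anchor, was at 0.12 (SE 0.13, limma adjusted p = 0.667) at day 14 and 0.17 (SE 0.13, limma adjusted p = 0.408) at day 28.

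Complex III hands electrons from ubiquinol to cytochrome c. Its Rieske iron-sulfur protein Uqcrfs1 had 73.2 to 111 FPKM (median 78.8) in silica day 14 lungs, against 49.8 to 72.8 FPKM (median 56.1) in saline day 14 lungs, with every silica library above every saline library, as for 2.80% of all genes, and a change of 0.47 (SE 0.16, limma adjusted p = 0.103). At day 28 it had 71.3 to 176 FPKM (median 78.9) in silica day 28 lungs, against 59.4 to 76.9 FPKM (median 63.1) in saline day 28 lungs. For Uqcrfs1 the log2 change was 0.45 (SE 0.16, limma adjusted p = 0.0640), and only saline replicate 5 reached into the silica range. Without the 2 muscle-rich libraries Uqcrfs1 was called at day 14 (0.53, limma adjusted p = 0.00233), as was Ndufs7 among 5% of all genes. The core proteins Uqcrc1 and Uqcrc2 were at 0.26 (SE 0.14, limma adjusted p = 0.215) and 0.21 (SE 0.15, limma adjusted p = 0.356) at day 28, and the small subunits Uqcrq and Uqcr11 at 0.27 (SE 0.15, limma adjusted p = 0.309) and 0.26 (SE 0.16, limma adjusted p = 0.383) at day 14. Uqcr10 was called higher in saline lungs at day 28 than at day 14, with 31.9 to 49.9 FPKM (median 43.9) in saline day 28 lungs, against 23.9 to 39.1 FPKM (median 27.7) in saline day 14 lungs and a change of 0.49 (SE 0.17, limma adjusted p = 0.0425). Uqcrh was the most abundant row of the complex (113 FPKM on average), and 1 of the 2 Uqcrb rows the lowest.

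Complex IV pairs common subunits with tissue isoforms. Among the common isoforms Cox4i1, the most abundant at 281 FPKM on average (227 to 449 over 24 libraries), was at -0.02 (SE 0.14, limma adjusted p = 0.930) at day 28, Cox7a2 at 0.16 (SE 0.13, limma adjusted p = 0.426), Cox8a at 0.09 (SE 0.09, limma adjusted p = 0.524) and the main Cox6b1 row at 0.11 (SE 0.13, limma adjusted p = 0.595). At day 14 Cox6b1 was at 0.28 (SE 0.13, limma adjusted p = 0.227) and Cox8a at 0.19 (SE 0.09, limma adjusted p = 0.243), neither called. Cox6a1, the form of subunit 6a outside muscle, had 206 to 403 FPKM (median 242) in silica day 14 lungs, against 153 to 207 FPKM (median 197) in saline day 14 lungs. For Cox6a1 the log2 change was 0.44 (SE 0.13, limma adjusted p = 0.0571), with 1 silica library inside the saline range. Cox5b was at 0.40 (SE 0.15, limma adjusted p = 0.0703) at day 28, and Cox5a was called higher in saline lungs at day 28 than at day 14 (0.42, SE 0.15, limma adjusted p = 0.0476). Cox7a2l, a factor of supercomplexes, had 60.4 to 125 FPKM (median 86.6) in silica day 28 lungs, against 64.8 to 135 FPKM (median 127) in saline day 28 lungs, and its change of the silica effect was -0.64 (SE 0.30, limma adjusted p = 0.162).

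The lung isoform Cox4i2 was called only between days in saline, with 15.8 to 26.0 FPKM (median 18.9) in saline day 28 lungs, against 21.4 to 29.1 FPKM (median 25.8) in saline day 14 lungs and a change of -0.38 (SE 0.14, limma adjusted p = 0.0448); in silica lungs it had 12.1 to 24.6 FPKM (median 22.0) in silica day 28 lungs, against 24.8 to 35.5 FPKM (median 26.9) in silica day 14 lungs, with every day 28 library below every day 14 library, as for 0.312% of all genes. The muscle isoform Cox6a2 had 1.31 to 229 FPKM (median 5.33) in silica day 28 lungs, against 0.647 to 2.08 FPKM (median 0.936) in saline day 28 lungs. For Cox6a2 the log2 change was 2.11 (SE 0.92, limma adjusted p = 0.122). Its 2 highest libraries were the muscle-rich ones, silica day 28 replicate 1 at 229 FPKM and saline day 14 replicate 5 at 53.3 FPKM. Cox8b, the muscle form of subunit 8, was at 63.3 and 23.8 FPKM in these 2 libraries and had a change of 1.21 (SE 0.50, limma adjusted p = 0.101).

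Cox7a1, also a muscle form, did not follow the muscle markers. It was at 5.07 FPKM in silica day 14 replicate 1, 4.51 in saline day 14 replicate 3, 6.26 in silica day 28 replicate 3 and 5.69 in saline day 28 replicate 1, and at 36.1 to 59.6 FPKM in the other 20 libraries. Exactly 1 library of each group was low, and no change was called (-0.22 at day 28, SE 0.64, limma adjusted p = 0.849). Cox6b2 was at -0.25 (SE 0.19, limma adjusted p = 0.381). Cox8c and Cox7b2, with germ-line expression known in other mammals, were near 0, with means of 0.107 and 0.0556 FPKM.

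**Figure D4:**
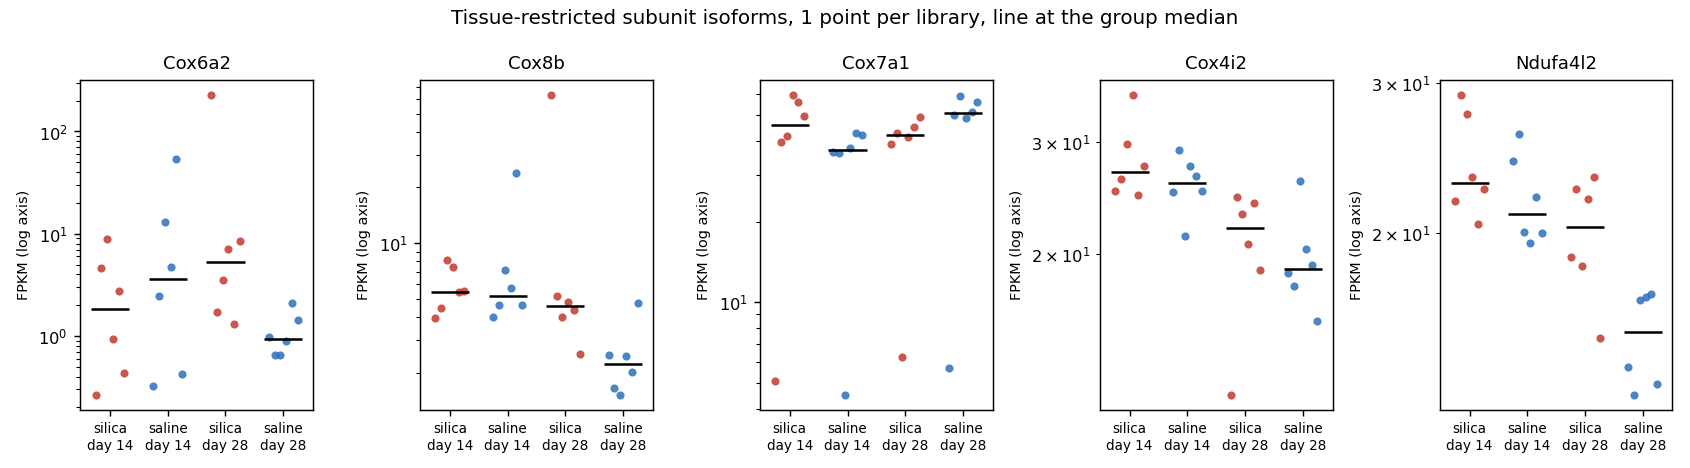
FPKM on log axes of 5 tissue- or condition-restricted isoforms, 1 point per library, a line at the group median, silica in red and saline in blue. Cox6a2 and Cox8b peak in silica day 28 replicate 1 and saline day 14 replicate 5, Cox7a1 has 1 low library in each group, and Cox4i2 and Ndufa4l2 are lower at day 28 in saline lungs.

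Complex V makes ATP. Atp5f1a, the alpha subunit of its catalytic head and the most abundant nuclear member of all at 379 FPKM on average, was called at day 28, with 363 to 851 FPKM (median 372) in silica day 28 lungs, against 227 to 379 FPKM (median 309) in saline day 28 lungs. For Atp5f1a the log2 change was 0.49 (SE 0.16, limma adjusted p = 0.0488). Silica replicate 1 stood at 851 FPKM, and the saline libraries were spread from 227 FPKM in replicate 6 to 379 FPKM in replicate 4. Without the 2 muscle-rich libraries the change was 0.29 and was not called (limma adjusted p = 0.0623), and the call was lost in 8 of 12 fits that left out 1 day 28 library. The beta subunit Atp5f1b had 326 to 777 FPKM (median 332) in silica day 28 lungs, against 225 to 328 FPKM (median 291) in saline day 28 lungs. For Atp5f1b the log2 change was 0.42 (SE 0.16, limma adjusted p = 0.0768).

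Atp5pb, a stator subunit, had 28.7 to 42.1 FPKM (median 36.9) in silica day 28 lungs, against 16.1 to 41.4 FPKM (median 25.0) in saline day 28 lungs. For Atp5pb the log2 change was 0.47 (SE 0.17, limma adjusted p = 0.0750), and in saline lungs it was called lower at day 28 than at day 14 (-0.55, SE 0.17, limma adjusted p = 0.0256). Atp5if1, the inhibitor that blocks reverse hydrolysis, was called higher in saline lungs at day 28 than at day 14, with 86.5 to 124 FPKM (median 116) in saline day 28 lungs, against 71.6 to 95.6 FPKM (median 83.9) in saline day 14 lungs. For Atp5if1 the log2 change was 0.40 (SE 0.14, limma adjusted p = 0.0349). Atp5mg, a membrane subunit, had 106 to 281 FPKM (median 132) in silica day 28 lungs, against 150.1 to 229 FPKM (median 203) in saline day 28 lungs and was at -0.36 (SE 0.19, limma adjusted p = 0.198); without the 2 muscle-rich libraries it was called lower in silica (-0.54, limma adjusted p = 0.0257). At day 14 the smallest p values of the complex belonged to Atp5mf, Atp5f1e and Atp5f1d, at 0.24 (SE 0.15, limma adjusted p = 0.365), 0.25 (SE 0.16, limma adjusted p = 0.394) and 0.18 (SE 0.12, limma adjusted p = 0.421).

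**Figure D5:**
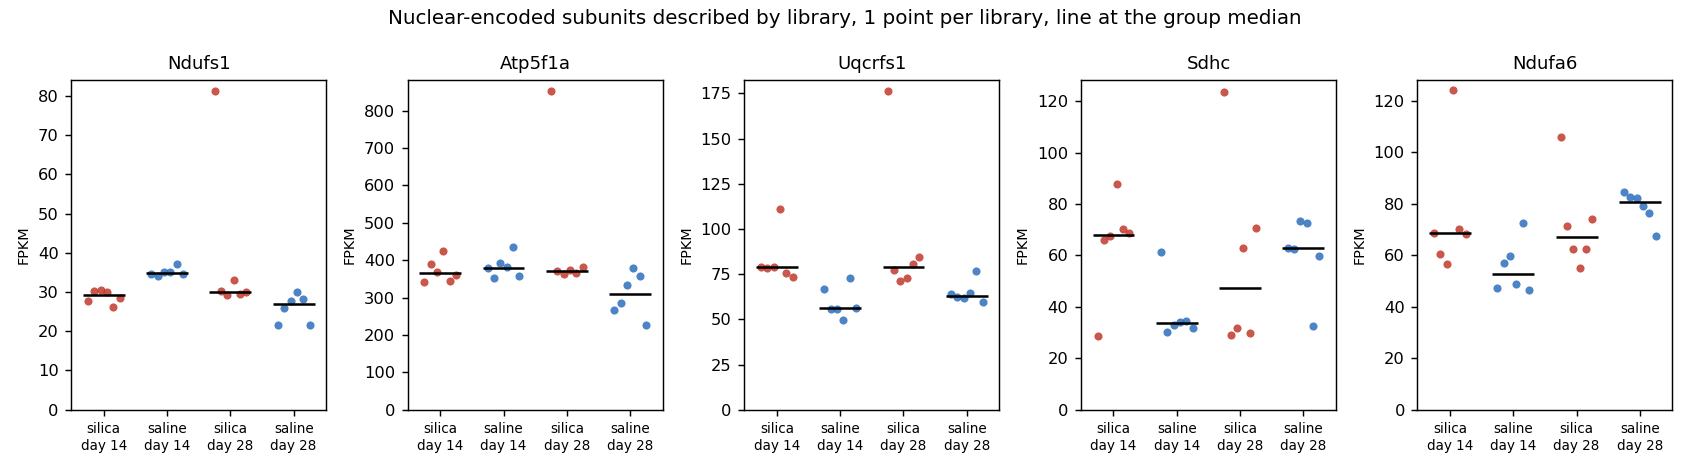
FPKM on linear axes from 0 of Ndufs1, Atp5f1a, Uqcrfs1, Sdhc and Ndufa6, 1 point per library, a line at the group median, silica in red and saline in blue. Silica day 28 replicate 1, a muscle-rich library, is the highest point for Ndufs1, Atp5f1a, Uqcrfs1 and Sdhc, and Sdhc lies on 2 levels within each group.

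In the saline comparison between days, nuclear members went different ways: Ndufa6, Uqcr10, Cox5a and Atp5if1 were called higher and Ndufa4l2, Cox4i2 and Atp5pb lower. Without the 2 muscle-rich libraries 19 were called, 12 higher and 7 lower, beside 28.6% of all genes. Leaving out 1 saline library in turn, Ndufa4l2 kept its call in all 12 fits, while Cox4i2 and Cox5a each lost it in 10 of 12. Once the trend of the changes with recovered gene length was removed, 11 nuclear members were called at day 28, all higher in silica, beside 15.1% of all genes: Atp5f1a, Atp5f1b, Cox5b, Ndufa4l2, Ndufa9, Ndufa10, Ndufa11, Ndufs1, Ndufs8, Sdha and Uqcrfs1. Apart from Ndufa4l2, each of these had its highest silica day 28 value in the muscle-rich replicate 1. That setting was not run without this library. Under that setting 7 were called between days in saline, 1 higher (Ndufa6) and 6 lower (Atp5f1a, Atp5pb, Cox4i2, Cox8b, Ndufa4l2 and Ndufs1), beside 23.7% of all genes. At day 28 Sdha was then at 0.36 (limma adjusted p = 0.0248) and Ndufs8, an iron-sulfur subunit of complex I, at 0.39 (limma adjusted p = 0.0169). The 7 mitochondrial members were called at day 28 under that setting too, with ND2 at -0.99 and COX1 at -0.92.

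Genes that build or feed the chain were followed through lists chosen by function, to be read against the shares of all genes called: 4.37% at day 14, 13.8% at day 28, 9.93% for the change of the silica effect and 25.2% between days in saline. At an unadjusted p under 0.05 the shares of all genes were 20.3% at day 14 and 31% at day 28. Of 15 complex I assembly factors tested, 0 were called in any of the 5 comparisons by limma or limma-voom, while 2 had an unadjusted p under 0.05 at day 14 and 2 at day 28. Of 10 assembly factors of complexes II and III, Sdhaf1, which helps to place iron-sulfur clusters in Sdhb, was called higher at day 14, with 16.2 to 28.9 FPKM (median 20.1) in silica day 14 lungs, against 8.89 to 14.0 FPKM (median 10.9) in saline day 14 lungs. For Sdhaf1 the log2 change was 0.83 (SE 0.12, limma adjusted p = 0.000127). Every silica day 14 library lay above every saline day 14 library, as for 2.80% of all genes. At day 28 Sdhaf1 was at 0.13 (SE 0.12, limma adjusted p = 0.501), and its change of the silica effect was -0.70 (SE 0.17, limma adjusted p = 0.0187). Uqcc3, an assembly factor of complex III, was called lower in silica at day 28 (-0.42, SE 0.13, limma adjusted p = 0.0296). Of 16 complex IV factors tested, Cox11, a copper chaperone, was called higher at day 28, with 7.09 to 8.35 FPKM (median 7.31) in silica day 28 lungs, against 4.07 to 5.91 FPKM (median 5.29) in saline day 28 lungs. For Cox11 the log2 change was 0.47 (SE 0.12, limma adjusted p = 0.0163). Of 4 complex V factors, 0 were called at either day by limma or limma-voom (0 and 2 with an unadjusted p under 0.05 at day 14 and day 28), and in saline lungs between days Atpaf2 was called higher (0.49) and Atpaf1 lower (-0.25).

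Of 14 genes of mitochondrial transcription and replication, 2 were called at day 28, a share near the 13.8% of all genes. Polg, the catalytic subunit of the mitochondrial DNA polymerase, was called higher in silica at day 28, with 15.2 to 19.6 FPKM (median 17.2) in silica day 28 lungs, against 11.2 to 15.3 FPKM (median 14.0) in saline day 28 lungs. For Polg the log2 change was 0.34 (SE 0.10, limma adjusted p = 0.0256). Mterf3, known in mouse as a repressor of mitochondrial transcription, was called lower, with 12.1 to 15.9 FPKM (median 14.2) in silica day 28 lungs, against 16.6 to 20.3 FPKM (median 17.4) in saline day 28 lungs. For Mterf3 the log2 change was -0.35 (SE 0.10, limma adjusted p = 0.0236). Every silica library lay below every saline library, as for 1.21% of all genes. Between days in saline 4 of the 14 were called, beside 25.2% of all genes, among them Polg lower (-0.37) and Polg2, its accessory subunit, higher (0.59). Polrmt, the mitochondrial RNA polymerase, was at -0.08 (SE 0.08, limma adjusted p = 0.50), and in saline lungs it was called higher at day 28 than at day 14 (0.24, SE 0.08, limma adjusted p = 0.0299). Tfam, which packages mitochondrial DNA, was at -0.05 (SE 0.10, limma adjusted p = 0.794); it stands outside the rule for named genes and was chosen after its value was seen. Of 13 genes of mitochondrial RNA processing, 0 were called at either day by limma or limma-voom (3 and 2 with an unadjusted p under 0.05 at day 14 and day 28), and in saline between days Fastk (0.52) and Fastkd1 (0.44) were called higher and Mtpap (-0.30) lower.

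Of 10 regulators of mitochondrial biogenesis, Pprc1, a coactivator related to PGC-1, was called lower at day 14, with 4.01 to 6.29 FPKM (median 5.57) in silica day 14 lungs, against 6.78 to 9.20 FPKM (median 7.88) in saline day 14 lungs. For Pprc1 the log2 change was -0.48 (SE 0.10, limma adjusted p = 0.00821). Yy1 was called higher at day 28, with 5.68 to 7.98 FPKM (median 7.59) in silica day 28 lungs, against 3.31 to 7.30 FPKM (median 4.39) in saline day 28 lungs. For Yy1 the log2 change was 0.52 (SE 0.15, limma adjusted p = 0.0248). Gabpa was at 0.26 (SE 0.09, limma adjusted p = 0.0589) at day 28 and was called in the change of the silica effect (0.46, SE 0.13, limma adjusted p = 0.0301). Of 13 tested citric acid cycle genes, Ogdh, a subunit of the 2-oxoglutarate dehydrogenase, was called higher at day 28, with 34.3 to 48.8 FPKM (median 39.4) in silica day 28 lungs, against 24.7 to 35.01 FPKM (median 28.8) in saline day 28 lungs. For Ogdh the log2 change was 0.44 (SE 0.09, limma adjusted p = 0.00732). Of 13 genes of electron carriers, Etfdh, which feeds electrons from fatty acid oxidation to ubiquinone, was called higher (0.41, SE 0.10, limma adjusted p = 0.0169) and Pdss2, of coenzyme Q synthesis, lower (-0.38, SE 0.13, limma adjusted p = 0.0471). Of 6 nucleotide and phosphate carriers tested, 0 were called in any of the 5 comparisons by limma or limma-voom, and 0 and 1 had an unadjusted p under 0.05 at day 14 and day 28.

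Among markers of other cells, only the ciliated list had several calls in the directions of the mitochondrial members. Of 9 tested ciliated cell markers, 6 were called lower in silica at day 28 (all genes 8.47%) and 8 higher in saline at day 28 than at day 14 (all genes 14.1%). The ciliated markers summed to 463 to 765 FPKM in silica day 28 lungs, against 651 to 1267 FPKM in saline day 28 lungs, and the ciliary motor gene Dnah9 had 3.41 to 8.58 FPKM (median 4.33) in silica day 28 lungs, against 4.80 to 20.2 FPKM (median 12.5) in saline day 28 lungs. For Dnah9 the log2 change was -1.05 (SE 0.26, limma adjusted p = 0.0142). Of 6 type 1 cell markers, 2 were called higher in silica at day 28, with a sum of 1881 to 3399 FPKM, against 1709.8 to 3179 FPKM in saline. Of 8 alveolar macrophage markers, Chia was called lower. Of the type 2, endothelial, neutrophil, lymphocyte, erythroid, muscle and brown fat markers, 0 were called at day 28 by limma or limma-voom, with an unadjusted p under 0.05 for 2 cardiac, 2 type 2, 3 endothelial and 1 neutrophil marker. Between days in saline 3 of 5 endothelial, 3 of 6 type 1, 3 of 6 erythroid, 1 of 7 cardiac and 1 of 5 neutrophil markers were called lower (all genes 11.1%), and 1 of 8 alveolar macrophage markers higher. The cardiac markers summed to at most 63.4 FPKM in saline day 28 lungs, where mitochondrial RNA was highest. The part of these cells in the subunit results was not tested.

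In the authors' deposited table, at an FDR under 0.05, 7 mitochondrial members were lower in silica at day 28, among them COX1 with a log2 fold change of -1.04 and ND2 with -1.13, and 0 of the 9 with an FDR were called at day 14. Between silica day 28 and silica day 14, where the fold runs as day 14 over day 28, the authors' deposited table called ATP6, with a log2 fold change of -5.54 (FDR 0.0453), and 0 nuclear members, beside 0.642% of all genes with an FDR. ATP6 was at 102 FPKM in silica day 28 replicate 2 and at most 8.98 in the other 5 silica day 28 libraries. For nuclear members the authors' deposited table called 5 higher (Cox6a1, Ndufv3, Sdhc, Ndufa7 and Uqcrfs1) and 1 lower (Ndufs1) at day 14, where 11.1% of all genes with an FDR were called, and 2 higher (Cox8c and Ndufa4l2) and 1 lower (Ndufa5) at day 28, where 13.3% were.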

How the data were processed

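Whole lungs of 24 rats were sequenced as poly-A RNA, 6 libraries in each of 4 groups. The authors deposited FPKM, read fragments divided by gene length and by sequencing depth. cutadapt 4.0, FastQC 0.11.9, HISAT2 2.1.0, HTSeq 0.9.1 and the builds Rnor_6.0 and rn6 are named in the submitters' processing notes, and use of strand in counting is not given in the sources used here. The authors' deposited table adds a log2 fold change, a p-value and an FDR for 3 comparisons, and the tool behind them is not given in the sources used here. Within a gene, FPKM values were whole multiples of a step, so whole reads were recovered for all 31521 genes above 0, 100% of them. They sum to 55.1 to 84.6 M (M, 1000000 reads) a library. The lowest gene length that gave whole reads was taken. The tolerance was 0.02 of a read at low counts and grew in proportion to the reads at high counts, as for COX1.

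Genes with at least 0.5 FPKM in at least 6 libraries (20856 of 32489) were fitted as log2(FPKM + 1) in limma 3.58.1 (R 4.3.3), with 1 mean per group over 24 libraries, a mean-variance trend and Benjamini-Hochberg adjustment over all genes in each of 5 contrasts. Fold changes are on that log2 scale and understate changes of low genes. The labels call the libraries biological replicates. For each gene the p-values rest on 1 spread between libraries, shared by the 4 groups, although spreads differed. The mitochondrial sum had an SD of 1352 FPKM in silica day 14 and 25499 FPKM in saline day 28 lungs. In the fit of the day 28 groups alone, the SE of the silica change was 0.39 for COX1 and 0.31 for ND5, larger than in the main fit. Named members are all mitochondrial genes, those with the smallest p in each complex, the isoforms and the highest and lowest of each complex; the lists add their smallest p. Members and lists were chosen with earlier results of these data known. The alternatives were another pseudocount, no filter, other scalings, a length correction, a replicate block, fits of the compared groups alone and left-out libraries, and, chosen after seeing the data, limma-voom on recovered reads, leaving out both muscle-rich libraries and summing 7 mitochondrial members in place of 13. The fit was tested on simulated data. Promoter letters came from RefSeq, GRCr8.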

Additional observations from a re-analysis of the deposited data

Results flagged for a closer look

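Values of sums and members were checked in 112 groups of 6 libraries for a library far from the other 5, and 49 were found; chance gives about 1 in 20 groups. No explanation was weighed.

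In silica day 14 replicate 4 the nuclear sum was high at 9344 FPKM, the log2 ratio of the sums low at 1.30, and COX3 (221.4 FPKM), ND3 (876.9 FPKM), Atp5if1 (160.3 FPKM) and Ndufa6 (124.3 FPKM) high. ND4 stood at 2.15 FPKM in silica day 14 replicate 3, ATP6 at 1.98 FPKM in replicate 5 and Cox7a1 at 5.07 FPKM in replicate 1.

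In saline day 14 replicate 5, which held cardiac muscle marker RNA, the mitochondrial sum was 40352 FPKM and the log2 ratio 2.52. High there too were ND6 (131.9 FPKM), ND5 (1554 FPKM), COX2 (2330 FPKM), COX3 (1015 FPKM), CYTB (2530.0 FPKM), ND3 (894.7 FPKM), COX1 (25253 FPKM), Cox6a2 (53.3 FPKM), Cox8b (23.8 FPKM) and Ndufs1 (37.1 FPKM). In saline day 14 replicate 1 ND4 was at 0.707 FPKM and Atp5pb at 32.4 FPKM, and in replicate 3 Cox7a1 was at 4.51 FPKM.

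In silica day 28 replicate 1, which held skeletal and cardiac muscle marker RNA, the mitochondrial sum was 41709 FPKM and the nuclear sum 10779.7 FPKM. High mitochondrial members were ND5 (1600.0 FPKM), COX2 (3219 FPKM), ND1 (3801 FPKM), ND2 (3622 FPKM) and CYTB (2819 FPKM). High nuclear members were Cox6a2 (228.8 FPKM), Cox8b (63.3 FPKM), Atp5f1a (851.4 FPKM), Cox5a (193.8 FPKM), Ndufa6 (105.9 FPKM) and Ndufs1 (81.1 FPKM). In silica day 28 replicate 3 COX3 was at 196.4 FPKM, ATP8 at 2543 FPKM and Cox7a1 at 6.26 FPKM, and in replicate 2 ATP6 was at 102.0 FPKM.

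In saline day 28 replicate 6 the nuclear sum was low at 5136 FPKM, as was Cox5a (98.4 FPKM), while Cox8b was high (4.78 FPKM). In saline day 28 replicate 1 ND6 was at 366.3 FPKM and Cox7a1 at 5.69 FPKM. In replicate 5 ND4 was at 1622 FPKM and ATP6 at 122.7 FPKM, and in replicate 3 ATP8 was at 0.0997 FPKM.

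The silica effect differed between the days for COX2, by -1.15 on the log2 scale, and for Ndufs1, by 0.75, both past the limma test of that difference.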

How the results depend on the processing

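No result reversed in any alternative run. For mitochondrial members lower in silica at day 28 (7 called), the count was 4 with no filter on low values, 0 in a fit of only the groups compared, 0 without 3 saline day 28 libraries and 0 at an adjusted p under 0.01. For nuclear members at day 28 (2 called) it was 1 with a pseudocount of 0.1, 1 with the replicate block, 1 scaled to reads outside the mitochondrial members, 1 with limma-voom, 11 with the length correction, and 0 in a fit of only the groups compared, without the 3 saline libraries and at 0.01. Median-of-ratios scaling added a call for Sdha at day 28. Leaving out the 2 muscle-rich libraries lost Atp5f1a there and added Ndufs1, higher in silica, and Atp5mg, lower. At day 14 (0 nuclear called) the count was 2 in a fit of only the groups compared, 1 with median-of-ratios scaling, 2 without the 3 saline libraries and 2 without the 2 muscle-rich libraries. For the change of the silica effect, mitochondrial members called (1) became 0 with no filter, the replicate block, median-of-ratios scaling, the length correction, the 3 saline libraries left out or 0.01, and 3 without the muscle-rich libraries. Nuclear members (1) became 0 with no filter, the replicate block, scaling outside the mitochondrial members, the 3 saline libraries left out, limma-voom or 0.01, and 5 without the muscle-rich libraries. Between days in saline, mitochondrial members (6) became 0 without the 3 saline libraries and 3 at 0.01. Nuclear members (7) became 3 with no filter, 15 in a fit of only the groups compared, 0 without the 3 saline libraries, 19 without the muscle-rich libraries and 1 at 0.01. Of all genes, a fit of only the groups compared called 4.98% at day 14, 2.78% at day 28 and 22% between days in saline. Without the 3 saline libraries these were 6.22%, 0.288% and 1.73%, and 0.0384% for the change. Without the muscle-rich libraries they were 5%, 13%, 28.6% and 12.9%. At day 28, 15.1% were called with the length correction and 11.4% with limma-voom. Shares for the other counts are not given here. The silica day 28 mean log2 ratio of 2.04 was 2.18 from recovered reads. The cause of these differences was not tested. Where libraries were left out, their smaller number and the loss of the chosen ones cannot be told apart. The lower counts at 0.01 follow from the stricter threshold.

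Leaving out 1 library at a time, mitochondrial members called ranged 0 to 0 at day 14, 1 to 7 at day 28, 0 to 2 for the change, 0 to 0 between days in silica and 6 to 7 in saline. Nuclear members ranged 0 to 2, 0 to 5, 0 to 5, 0 to 0 and 2 to 14, in the same order. The shares of all genes called in these fits are not given here. Of 24 called member results, 21 kept their call with limma-voom, 18 with the replicate block and 0 without the 3 saline libraries. Same-numbered libraries of different groups had a mean correlation of -0.023 over 36 pairs (-0.30 to 0.13), so numbers were not taken as pairs. A count-based quasi-likelihood test listed as an alternative was not run, since the deposited values are FPKM. Depth was 55.1 to 84.6 M reads a library; the number of libraries also limits precision.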
